A study of Mus musculus with 300 samples.

Results

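The 10 genes described here encode receptors for growth factors and cytokines of the testicular niche: the fibroblast growth factor (FGF) receptors Fgfr1, Fgfr2, Fgfr3 and Fgfr4, the CSF1 receptor Csf1r, the chemokine receptor Cxcr4, the interleukin 6 family receptors Il6st and Lifr, and the insulin family receptors Igf1r and Insr. They were chosen by name and not by a cut on their values, though with earlier results of these data known. All 10 were found among the 23354 gene names of the expression table. The study measured the transcriptomes of 300 single spermatogonia that carried an ID4-EGFP reporter, isolated from testes of untreated adult mice. EGFP brightness of each cell had been measured on the capture chip, and the cells were divided into the quartiles Q1 (brightest, 79 cells), Q2 (78 cells), Q3 (71 cells) and Q4 (dimmest, 72 cells). All groups share the reporter, the treatment status and the gate, which took cells bright for the surface protein CD9 and positive for EGFP, so that no reporter-negative cell serves as a control. The cells came from 4 preparations, each pooled from more than 1 mouse, which held 67, 82, 71 and 80 cells and were the replicates (n = 4). The number after "Seq" in the sample titles was read as the preparation, and the n of 4 rests on that reading.

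Spermatogonial stem cells divide and differentiate under signals from Sertoli cells, peritubular cells, vessels and macrophages around them. FGFs act through receptor tyrosine kinases that feed the RAS and ERK cascade, CSF1 and CXCL12 act through Csf1r and Cxcr4, and cytokines such as LIF act through a pair of a specific chain (Lifr) and the shared chain gp130 (Il6st), which activates JAK kinases and STAT factors. Insulin and insulin-like growth factors bind the related tyrosine kinases Insr and Igf1r and signal through insulin receptor substrates and PI3 kinase.

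Of the spermatogonial markers that check the labelled cell type, Dazl and Uchl1 stood at 1 FPKM or more in all 300 cells, Ddx4 in 299 and Sall4 in 294. Cd9 was in 285, Zbtb16 in 268, Dnd1 in 203, Stra8 in 201, Ret in 178, Gfra1 in 174 and Kit in 93. FPKM is a fragment count scaled to transcript length and library size, so levels can be set side by side between genes. Between 2934 and 7817 genes per cell reached 1 FPKM. Preparation 1 averaged 4368 such genes per cell and the others 5572 to 6216. The quartiles averaged 5687 ± 697 in Q1 and 5356 ± 810 in Q4 (SD, n = 4), at a relative sequencing depth of 1.02 ± 0.143 and 1.01 ± 0.118. Where an FPKM is 0, the gene is listed at 0 in that cell, which does not show that it is silent.

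Igf1r was the most widely found receptor, and the other 9 spread over a wide range below it. A cell was counted as carrying a transcript at 1 FPKM or more. By that measure Igf1r was in 273 of 300 cells (91%, exact 95% binomial interval 87.2% to 94%, for counting error only). Lifr followed with 167 cells (55.7%, 49.8% to 61.4%) and Fgfr1 with 130 cells (43.3%). Il6st was in 82 cells (27.3%, 22.4% to 32.8%) and Cxcr4 in 70 (23.3%, 18.7% to 28.5%), with overlapping intervals. Insr was in 33 cells (11%, 7.69% to 15.1%) and Fgfr3 in 22 (7.33%, 4.65% to 10.9%), again overlapping. Fgfr2 was in 15 cells (5.00%), Csf1r in 9 (3.00%) and Fgfr4 in 1 (0.333%, with an interval from 0.00844% to 1.84%).

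The level in the cells that carried a transcript did not follow how many cells carried it. Median FPKM among detecting cells was similar for Lifr (15.1), Fgfr1 (13.2), Fgfr2 (13.2) and Igf1r (12.9), although Fgfr2 was found in 15 cells and Igf1r in 273. Il6st (9.91), Fgfr3 (9.24), Cxcr4 (5.74) and Insr (4.81) had lower medians, and Csf1r the highest at 73.4. Single cells reached 276 FPKM for Fgfr1, 204 for Lifr and 143 for Igf1r. The highest value of any member was 366 FPKM of Il6st in 1 Q1 cell of preparation 1, while the next cell had 60.9. Igf1r was listed at 0 in 3 cells, Lifr in 89, Fgfr1 in 127 and Il6st in 196.

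**Figure D1:**
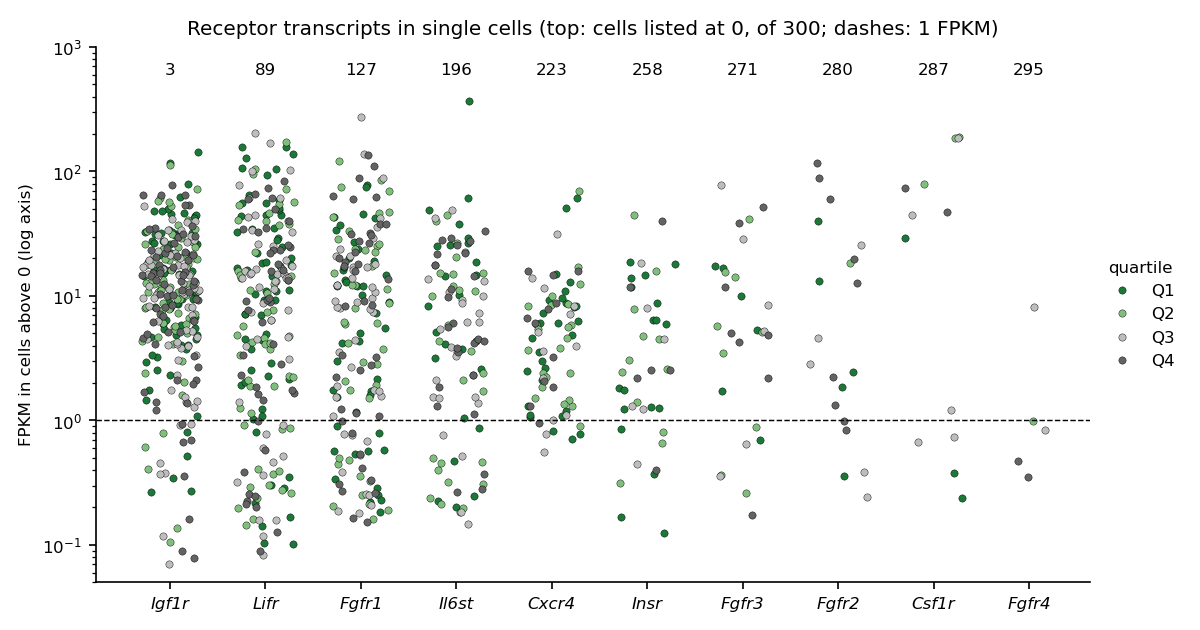
FPKM of each receptor in every cell where it was above 0 (log axis; 1 point per cell, coloured by EGFP quartile; the dashed line is 1 FPKM). The numbers at the top count the cells listed at 0, from 3 of 300 for Igf1r to 295 for Fgfr4, and the points of all quartiles lie over one another for the widely found receptors.

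Between the EGFP quartiles, no receptor passed the test. The level of a gene in a group was the mean of log2(FPKM + 1) over its cells, taken per preparation and quartile, which gives 16 means per gene. A gene entered the comparison if at least 30 cells had at least 1 FPKM of it, and 6 receptors did so: Fgfr1, Cxcr4, Il6st, Lifr, Igf1r and Insr. In the limma fit with the preparation as a block, 0 of these 6 reached an adjusted p under 0.05 for Q1 against Q4, where 3.25% of all 10411 tested genes did (2.72% higher and 0.528% lower in Q1). At an unadjusted p under 0.05 there were 2 (Lifr and Cxcr4), against 16.3% of all genes. The trend over the 4 quartiles gave 0 of 6 adjusted, against 4.51% of all genes (3.77% rising and 0.74% falling towards bright cells), and the same 2 unadjusted, against 17.7%. The median difference of the 6 was 0.30 on the log2 scale and 5 of them were positive, beside a median of 0.10 and 59.6% positive over all tested genes. Q1 and Q4 preparation means overlapped for all 6, whereas 5.85% of all tested genes had means that did not overlap. In simulated data of this design, genes were changed by 1 or by 2 on the log2 scale. Of these, 27 of 100 and 86 of 100 were recovered for Q1 against Q4, and 41 of 100 and 92 of 100 for the trend. A difference of about 1 thus often went uncalled. The changed genes were drawn from all tested ones, with normal noise and even steps over the quartiles. The rates for receptors found in few cells may differ.

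Among the FGF receptors, Fgfr1 was in the most cells, and it did not differ between bright and dim cells beyond its spread. Fgfr1 binds FGF2 and several other FGFs. Its share was 42% ± 13.7, 39.6% ± 23.9, 45.1% ± 19.8 and 42.2% ± 13.7 from Q1 to Q4 (SD, n = 4). In preparations 1 to 4 its mean log2(FPKM + 1) was 0.94, 1.95, 1.32 and 2.14 in Q1. In Q4 it was 1.21, 2.43, 0.84 and 2.53. The groups overlapped fully and Q1 was the higher one in 1 of 4 preparations. The difference Q1 minus Q4 was -0.16 (SE 0.32, adjusted p = 0.862, limma), with a 95% interval from -0.83 to 0.51.

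Fgfr1 differed more between preparations than between quartiles. Averaged over quartiles, its mean log2 level was 0.87 in preparation 1, 1.93 in preparation 2, 1.45 in preparation 3 and 2.41 in preparation 4. That is a range of 1.54, beside 0.16 between the quartile means. Its share over all cells was 20.9% in preparation 1 and 57.5% in preparation 4, the preparations with the fewest and the most genes per cell. Cells with Fgfr1 held on average 5872 genes and cells without it 5287. The part of this difference in the preparation values was not tested.

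Fgfr2 and Fgfr3, receptors known from the development of epithelia and skeleton, were found in few cells and did not enter the comparison. Fgfr2 was in 4, 1, 3 and 7 cells from Q1 to Q4. Of the 7 Q4 cells, 3 came from preparation 1, 1 from preparation 3 and 3 from preparation 4. Fgfr3 was in 5, 6, 4 and 7 cells from Q1 to Q4. Fitted without the filter on low values, the difference Q1 minus Q4 was -0.29 for Fgfr2 (adjusted p = 0.538, limma) and -0.10 for Fgfr3 (adjusted p = 0.892, limma). Neither passed, and between 0% and 21.1% of the cells of any preparation and quartile carried either transcript.

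Fgfr4, the receptor that responds to FGF19 class hormones in liver, was close to absent from the table. It stood at 8.10 FPKM in 1 Q3 cell of preparation 2, and 4 other cells had values from 0.350 to 0.997 FPKM. The remaining 295 cells were listed at 0, among them all cells of Q1.

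**Figure D2:**
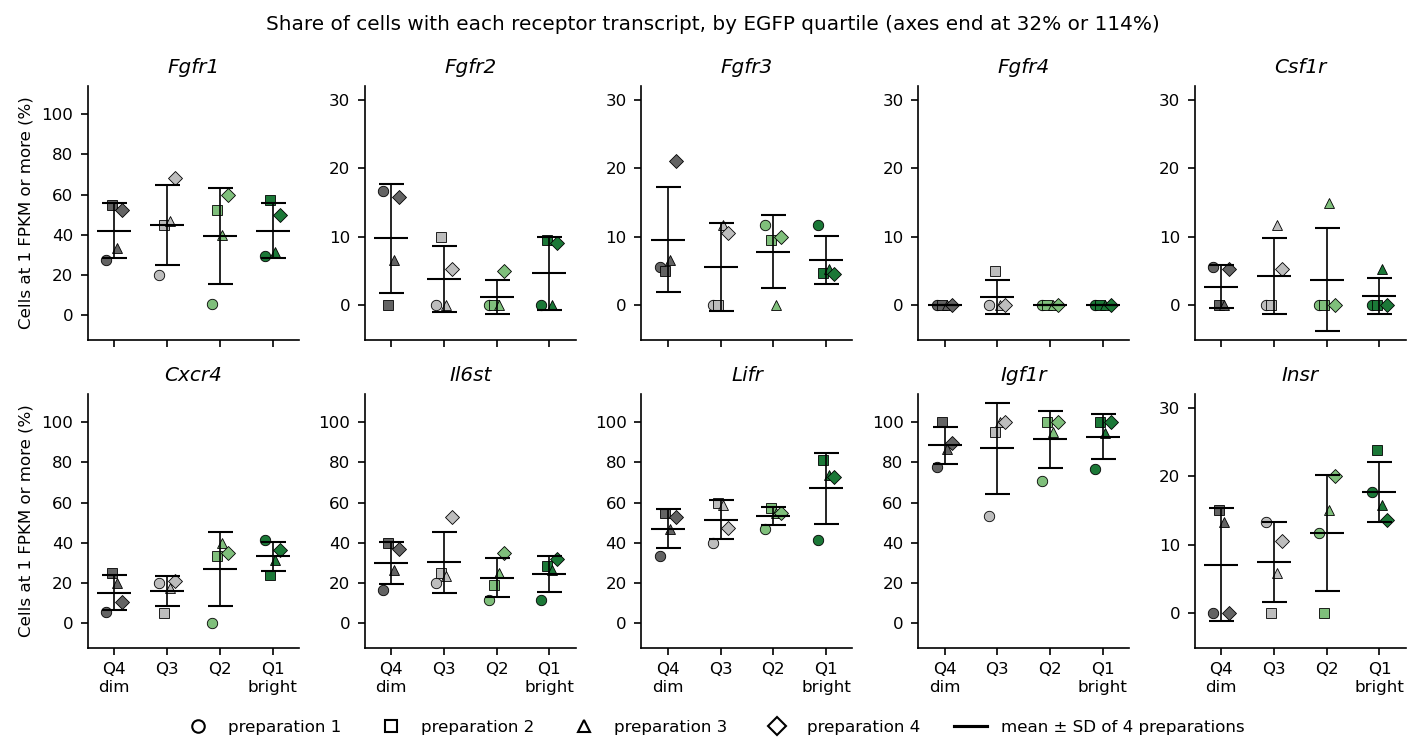
Percent of cells with at least 1 FPKM of each receptor (vertical axis) by EGFP quartile from Q4, dim, to Q1, bright; symbols are the 4 preparations, and the bars are their mean and SD, which can pass 0% or 100%. Lifr, Cxcr4, Insr and Igf1r have their highest mean share in Q1 (67.1%, 33.2%, 17.7% and 92.8%), with overlap between Q1 and Q4. The mean shares of Igf1r stay between 87.1% and 92.8%, and Fgfr1 is highest in Q3 (45.1%).

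Of the cytokine receptors, Lifr came nearest to a difference between quartiles. Lifr encodes the chain that binds LIF and pairs with gp130 for several related cytokines. Its share was 41.2%, 81%, 73.7% and 72.7% in Q1 of preparations 1 to 4. The Q4 values were 33.3%, 55%, 46.7% and 52.6%. Every preparation had the larger share in Q1, but Q1 of preparation 1 lay below Q4 of each other preparation. The mean was 67.1% ± 17.7, 53.6% ± 4.44, 51.5% ± 9.58 and 46.9% ± 9.71 from Q1 to Q4 (SD, n = 4). The slope of the share was 6.27 percentage points per quartile towards bright cells (exact permutation p = 0.00143, two-sided, labels moved within preparations), which did not pass after adjustment over all tested genes (adjusted p = 0.0692). No receptor passed this test of shares, and 1.13% of all tested genes did. Lifr and Cxcr4 had an unadjusted p under 0.05, against 14.1% of all genes.

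When any value above 0 was counted, Lifr passed. By that measure its share rose from 60.9% ± 8.02 in Q4 through 66.7% and 71.5% to 78.8% ± 13.3 in Q1 (SD, n = 4), a slope of 5.86 percentage points per quartile (exact permutation p = 0.000127, adjusted p = 0.0269). With this measure 1.09% of all tested genes passed. Counted at 5 FPKM or more, the slope was 3.99 percentage points (exact permutation p = 0.108, adjusted p = 0.492). Cells with Lifr at 1 FPKM or more held on average 5792 genes, and the other cells 5224. The number of genes per cell was also higher in Q1 than in Q4, and its part in the Lifr share was not tested.

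The mean level of Lifr was also higher in Q1 in each preparation, without passing the test. In preparations 1 to 4, mean log2(FPKM + 1) was 1.89, 3.32, 3.30 and 2.91 in Q1. Against these, Q4 had 1.24, 2.04, 2.02 and 2.19. The difference within a preparation was 0.65 to 1.28, and the groups overlapped. The difference was 0.98 (SE 0.34, 95% interval 0.29 to 1.67), with an unadjusted p of 0.00712 and an adjusted p of 0.114 in limma. The step from Q2 (2.09 ± 0.30) to Q1 (2.85 ± 0.67) was the widest, and Q3 (2.30 ± 0.60) lay above Q2. Among cells that carried Lifr the median was 17.5, 11.8, 15.3 and 16.1 FPKM from Q1 to Q4. Without the 33 cells that matched a marker list of another cell type, the Lifr difference was 0.78 (limma adjusted p = 0.327). With the number of genes per cell as a covariate it was 1.00 (limma adjusted p = 0.319).

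Il6st, the gene of the shared chain gp130, did not differ between quartiles beyond its spread. Its share was 24.6% ± 8.86, 22.7% ± 9.82, 30.3% ± 15 and 30.0% ± 10.6 from Q1 to Q4 (SD, n = 4). Mean log2(FPKM + 1) in preparations 1 to 4 was 0.83, 1.05, 0.92 and 1.21 in Q1. The dim cells of Q4 had 0.40, 1.58, 0.70 and 1.23. Q1 was higher in 2 preparations and lower in 2. The difference was 0.03 (SE 0.26, 95% interval -0.50 to 0.56, adjusted p = 0.974, limma). Its sign turned under a smaller pseudocount (-0.08), under median centring (-0.15), and without preparation 1 (-0.11) or preparation 3 (-0.04). With the log of the mean FPKM over cells it was 0.998 (adjusted p = 0.580, limma), a measure that gives the cell at 366 FPKM its full weight.

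The chains of the LIF receptor were found together in a minority of cells. Il6st and Lifr were both at 1 FPKM or more in 51 cells, which is 62.2% of the cells with Il6st and 30.5% of those with Lifr. Among cells without Il6st, 53.2% carried Lifr. So 116 cells had Lifr transcript with Il6st under 1 FPKM, and 31 cells had the reverse. A transcript under 1 FPKM in a single cell may be present and missed, so these counts are of detection.

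Cxcr4, the receptor that binds the chemokine CXCL12, was counted in more cells of Q1 and Q2 than of Q3 and Q4, without passing the test. From Q1 to Q4, 26, 22, 11 and 11 cells carried it. The share was 33.2% ± 7.40, 27.1% ± 18.3, 15.9% ± 7.42 and 15.3% ± 8.83 from Q1 to Q4 (SD, n = 4). By preparation, Q1 held 41.2%, 23.8%, 31.6% and 36.4%. Q4 held 5.56%, 25%, 20.0% and 10.5%. Preparation 2 went the other way from the other preparations, and its Q1 value lay below its own Q4 value.

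Neither test of Cxcr4 passed. The slope of the share was 6.5 percentage points per quartile (exact permutation p = 0.0266, adjusted p = 0.274). Q1 had a mean log2 level of 0.94 ± 0.25 and Q4 one of 0.45 ± 0.27 (SD, n = 4). They differed by 0.49 (SE 0.22, 95% interval 0.04 to 0.95, adjusted p = 0.258, limma). Its trend was 0.17 per quartile (adjusted p = 0.157, limma). Among the cells with Cxcr4, the median was 6.03 FPKM in Q1 and 6.69 FPKM in Q4.

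**Figure D3:**
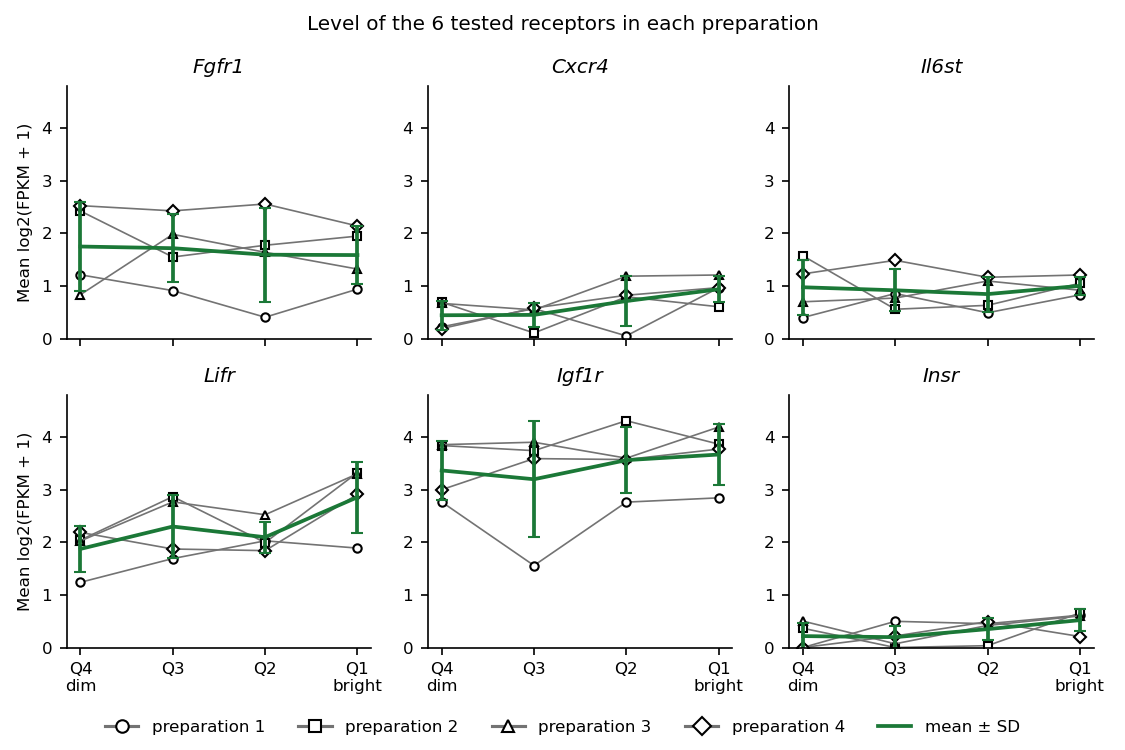
Mean log2(FPKM + 1) of the 6 tested receptors (vertical axis) by EGFP quartile in each of the 4 preparations (grey lines), with the mean and SD over preparations in green. Lifr ends highest in Q1 in preparations 2, 3 and 4, and preparation 1 lies lowest for Igf1r in every quartile.

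Igf1r, the receptor of IGF1 and IGF2, stood at a high level in all quartiles. Its share was 92.8% ± 11.2, 91.4% ± 14.1, 87.1% ± 22.6 and 88.5% ± 9.16 from Q1 to Q4 (SD, n = 4). Mean log2(FPKM + 1) in preparations 1 to 4 was 2.84, 3.86, 4.19 and 3.77 in Q1. In Q4 the values were 2.76, 3.84, 3.85 and 3.00. Q1 was the higher one in 4 of 4 preparations, by 0.03 to 0.77, and the groups overlapped. The difference was 0.30 (SE 0.35, 95% interval -0.42 to 1.03, adjusted p = 0.744, limma). It was 0.15 without preparation 4, 0.12 with median centring and 0.18 with genes per cell as a covariate.

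As with Fgfr1, preparations differed more than quartiles for Igf1r. The preparation means ran from 2.48 in preparation 1 to 3.94 in preparation 2, and the quartile means had a range of 0.47. In preparation 1, 70.1% of the cells carried Igf1r, and in the others 94.4% to 98.8%. Cells with Igf1r held on average 5639 genes, and the 27 others 4548.

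Insr, the insulin receptor gene, was found in about 1 in 9 cells and most often in Q1, without passing the test. From Q1 to Q4, 14, 9, 5 and 5 cells carried it. The share in preparations 1 to 4 was 17.6%, 23.8%, 15.8% and 13.6% in Q1. Q4 held 0%, 15%, 13.3% and 0%. Every preparation had the larger share in Q1, and the lowest Q1 share was below the highest in Q4. The slope was 3.62 percentage points per quartile (exact permutation p = 0.0523, adjusted p = 0.361). The mean log2 level differed by 0.30 (SE 0.18, 95% interval -0.06 to 0.66, adjusted p = 0.409, limma). Unlike the other tested receptors, Insr was found in cells with as many genes (5536 on average) as the cells without it (5541).

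Steps between neighbouring quartiles gave no call for any of the 6 receptors. Over all tested genes 0.0192% passed from Q2 to Q1, 0% from Q3 to Q2 and 0.00961% from Q4 to Q3 (limma, adjusted p under 0.05). At an unadjusted p under 0.05 there was 1 receptor, Lifr, from Q2 to Q1, against 5.73% of all genes. There were 0 from Q3 to Q2 and from Q4 to Q3, against 7.37% and 6.58%.

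Csf1r, the receptor that macrophages need for survival and growth, was found with macrophage transcripts. Its highest values, 29.4 to 191 FPKM, were in 8 cells. Each of these 8 also carried 11 to 16 of the 16 macrophage and leukocyte markers at 1 FPKM or more, among them Lyz2 at 241 to 6127 FPKM. None of the other 292 cells carried more than 4 of the 16, and their median Csf1r was 0. The ninth cell with Csf1r had 1.20 FPKM and 1 marker, and 4 further cells had 0.239 to 0.731 FPKM and 0 to 2 markers. Outside the 8 cells, Csf1r thus reached 1 FPKM in 1 of 292 cells (0.342%).

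The single macrophage markers differed in how closely they followed Csf1r. The complement gene C1qa was in 8 of the 9 cells with Csf1r and in 2.06% of the others. The pan-leukocyte gene Ptprc was in 7 of the 9 and in 0.687% of the others. Lyz2 was in 8 of the 9 and in 9.62% of the others. Cd14, Fcgr1 and Itgam were each in 4 of the 9. The widest, Fcer1g, was in all 9 and in 16.5% of the others, and Cd68 was in 8 of the 9 and in 12.7%, so most cells with Fcer1g, Cd68, Mrc1 or Lyz2 had Csf1r under 1 FPKM. None of the 16 markers was at 0 in every cell. The summed level of the list, averaged per preparation, ran from 39.9 to 667 FPKM in Q1, 9.81 to 1386 in Q2, 15.4 to 335 in Q3 and 22.8 to 351 in Q4.

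The 8 cells were not without germ cell transcripts. They carried 7 to 10 of the 11 spermatogonial markers, with Dazl at 701 to 1213 FPKM. Other markers were low in some of them: Ddx4 ranged from 20.1 to 554 FPKM and Sall4 from 20.3 to 570. Zbtb16 stood at 0, 2.43, 2.67, 3.45, 3.56, 5.98, 20.4 and 53.1 FPKM. The 8 cells held 4458 to 7031 genes, within the range of the other cells. By preparation, 5 of the 8 came from preparation 3, 2 from preparation 4 and 1 from preparation 1. From Q1 to Q4 there were 1, 3, 2 and 2 of them. Capture sites with more than 1 cell had been excluded by imaging, per the labels' protocols, and whether macrophage material was captured with these germ cells was not tested.

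**Figure D4:**
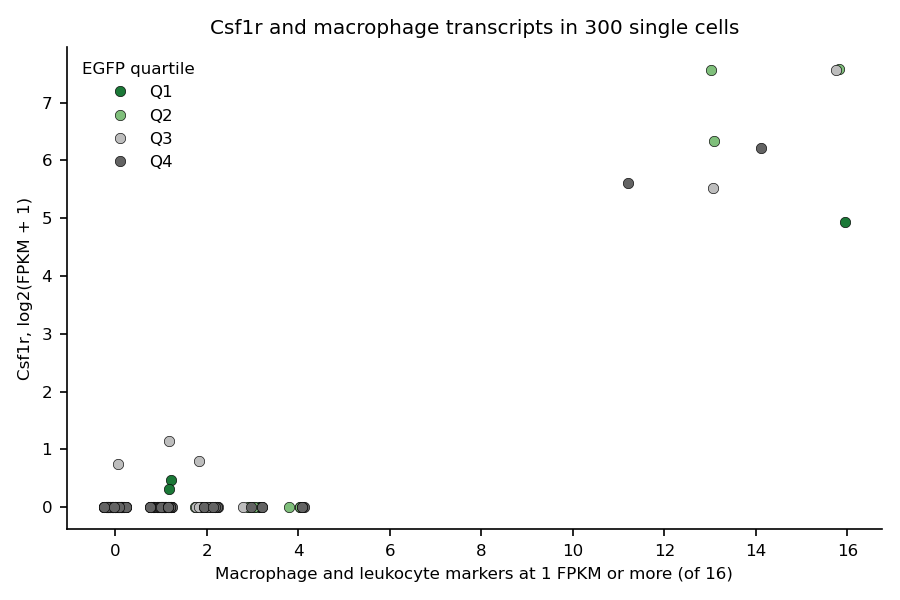
Csf1r level, log2(FPKM + 1), against the number of 16 macrophage and leukocyte markers at 1 FPKM or more, 1 point per cell (300 cells, spread slightly sideways, coloured by EGFP quartile). The 8 cells at the upper right have 29.4 to 191 FPKM of Csf1r and at least 11 markers, and all other cells have at most 4.

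Other receptors were found both in those 8 cells and outside them. Cxcr4, which leukocytes also express, was in 3 of the 8 and in 22.9% of the other 292. Lifr was in 4 of the 8 and in 55.8% of the others, and Igf1r in 7 of the 8 and in 91.1%. Counted without every cell that matched a list of another cell type, the 267 remaining cells had Igf1r in 93.3%, Lifr in 55.8%, Fgfr1 in 45.7%, Il6st in 28.5% and Cxcr4 in 22.8%. Of the lists other than the macrophage one, that of pachytene spermatocytes and spermatids was met by 21 cells, the endothelial list by 3 and the peritubular myoid list by 1. The Sertoli, Leydig and lymphocyte lists were met by 0 cells.

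Most cells carried several receptors. The 300 cells had a median of 3 of the 10 receptors and a maximum of 6, and 8 cells had none. The mean per cell was 2.90 ± 0.447, 2.59 ± 0.697, 2.52 ± 0.651 and 2.52 ± 0.484 from Q1 to Q4 (SD, n = 4). The same mean was 1.86 in preparation 1 and 2.71 to 3.11 in the others. The SD holds these differences between preparations, and the difference between quartiles within preparations was not tested. At least 1 FGF receptor was in 146 cells (48.7%), more than 1 in 22 cells, and in 16 cells it was a receptor other than Fgfr1.

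Fgfr2 was mostly found beside Fgfr1, and Fgfr3 less so. Of the 15 cells with Fgfr2, 12 carried Fgfr1, and of the 22 with Fgfr3, 10 did. Over all cells 43.3% carried Fgfr1. No cell carried both Fgfr2 and Fgfr3. Of the 33 cells with Insr, 31 also carried Igf1r, and 275 cells (91.7%) carried one or the other. Igf1r was in 16 of the 22 cells with Fgfr3 (72.7%) and in 92.4% of the other cells. Cells of 1 preparation are not independent replicates, so these shares are given with no test.

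The ligands of these receptors ranged from not found to widely found in the spermatogonia themselves. Igf2, a ligand of Igf1r, was in 110 of 300 cells (36.7%). Fgf2, Lif, Il6, Osm, Cntf, Il34, Ins1 and Ins2 reached 1 FPKM in 0 of 300 cells, which allows a share of up to 1% (counting error only). Csf1 was in 9 cells, Cxcl12 in 19 and Igf1 in 19. Of 22 FGF genes measured, 17 were above 0 in some cell and 2 had enough cells to be tested. Fgf9, a secreted FGF known from testis development, was in 40 cells, and Fgf13, an intracellular member of the family, in 37.

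Fgf9 was higher in Q1 than in Q4 in the main fit, which it entered only through its Q1 cells. Its mean log2(FPKM + 1) in preparations 1 to 4 was 0.13, 1.94, 0.75 and 0.95 in Q1. Q4 had 0.00, 0.32, 0.02 and 0.00. Q1 was higher in 4 of 4 preparations, although Q1 of preparation 1 lay below Q4 of preparation 2. The difference was 0.86 (SE 0.21, adjusted p = 0.0244, limma), and the share was 25.6% in Q1 and 3.75% in Q4. The call was lost in 8 of 11 alternatives, among them the fits without preparation 2, 3 or 4. Fgf13 differed by -0.41 (adjusted p = 0.448, limma).

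Among the genes listed for FGF and ERK signalling, 4 targets and feedback inhibitors of ERK passed, and 0 adaptors or cascade genes did. Which receptor acts on these 4 genes was not tested. Over all tested genes 3.25% passed (2.72% higher and 0.528% lower in Q1). At that share, counts of 0 among 14 or 10 genes do not set a list apart. Of 14 adaptors tested 0 passed in either direction (median difference 0.40), and of 10 RAS and ERK cascade genes 0 passed (median 0.10). Of the adaptors, Shc1 had a difference of 1.08 (adjusted p = 0.113, limma). Of 3 co-receptors and modulators 0 passed, with the FGF inhibitor Il17rd at 0.83 (adjusted p = 0.137). Of 10 targets and feedback inhibitors, 4 rose from Q4 to Q1 and 0 fell (median 0.89). These were the ERK phosphatase Dusp6 (4.29, adjusted p = 7.33e-07), the transcription factor gene Etv5 (3.74, adjusted p = 7.33e-07) and the inhibitors Spry4 (2.42, adjusted p = 7.14e-05) and Spry2 (2.25, adjusted p = 0.000180; all limma). Over the quartile trend 5 of the 10 rose, where 4.51% of all tested genes passed and 3.77% rose. The fifth was Spry1, named for having passed (0.27 per quartile, adjusted p = 0.0439, limma). The Spry1 call was lost in 9 of 11 alternatives.

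**Figure D5:**
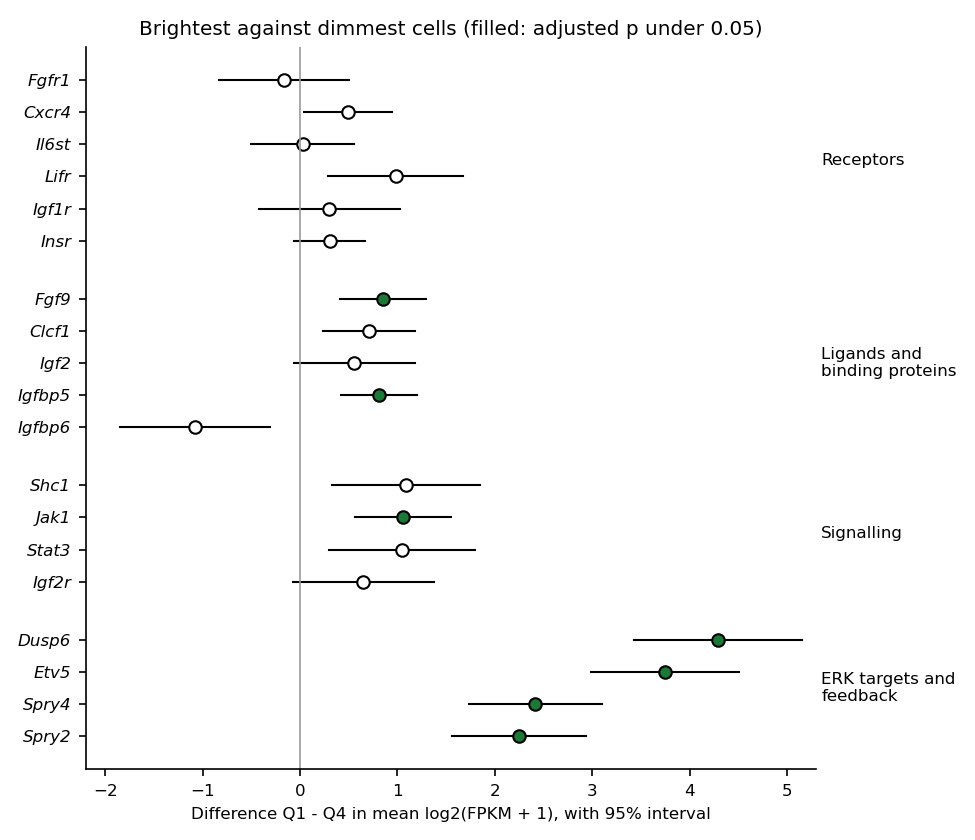
Difference Q1 minus Q4 in mean log2(FPKM + 1), with its 95% interval, for the 6 tested receptors and for ligands, signalling genes and ERK targets of their pathways (limma; filled points have an adjusted p under 0.05). The receptors lie between -0.16 and 0.98 with open points. Of the 10 tested ERK targets and inhibitors, only the 4 that passed are drawn, between 2.25 and 4.29 with filled points. The others, not drawn, did not pass and lie between 0.44 (Spred2) and 1.02 (Spred1), near the receptors' range.

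In the JAK and STAT list, Jak1 rose in bright cells, and whether Lifr or Il6st has a part in this was not tested. Jak1, a kinase that gp130 receptors use, was in 299 of 300 cells, with a mean log2(FPKM + 1) of 7.19, 7.09, 7.42 and 7.45 in Q1 of preparations 1 to 4. In Q4 it was 6.22, 6.31, 6.14 and 6.26. The groups did not overlap. The difference was 1.06 (SE 0.24, adjusted p = 0.0122, limma), and the trend was 0.39 per quartile (adjusted p = 0.00306, limma). The Q1 against Q4 call was lost in 5 of 12 alternatives, those without preparation 3 or 4 included, and the trend passed in 12 of 12.

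Of the 18 JAK and STAT genes and inhibitors tested, Jak1 was the 1 that passed for Q1 against Q4, and 0 fell (median 0.24), where 3.25% of all tested genes passed. Stat3, the main STAT factor of this receptor family, passed for the trend (0.48 per quartile, adjusted p = 0.0393, limma), with a Q1 against Q4 difference of 1.05 (adjusted p = 0.120). Its mean level was 3.68 ± 0.96, 3.66 ± 0.26, 2.04 ± 0.65 and 2.63 ± 0.46 from Q1 to Q4 (SD, n = 4), and the trend call was lost in 9 of 12 alternatives, among them the fits without preparation 2, 3 or 4. The inhibitor gene Socs5 differed by 0.83 (adjusted p = 0.103). Of the ligand list 1 gene was tested, the cytokine gene Clcf1 (0.71, adjusted p = 0.0921, limma). The partner receptor gene Il11ra1 differed by 0.12 (adjusted p = 0.850, limma). The partner receptor genes Il6ra and Cntfr were in 16 and 10 cells, and Osmr in 0.

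For Cxcr4 and Csf1r, 1 of 7 ligand and partner genes was tested. This was Mif, a cytokine gene that was in all 300 cells and differed by -0.13 (adjusted p = 0.774, limma).

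Around Igf1r and Insr, the binding protein gene Igfbp5 was higher in Q1 than in Q4 in the main fit. As with Fgf9, it entered that fit only through its Q1 cells, since too few cells outside Q1 carried it. Fitted without the filter on low values, it still passed (adjusted p = 0.0412, limma). Igfbp5 was in 54 cells, 32.2% of those in Q1 and 1.25% of those in Q4 as means over preparations. Its median among detecting cells was low, at 3.18 FPKM. Its mean log2(FPKM + 1) in preparations 1 to 4 was 0.58, 1.01, 0.72 and 1.13 in Q1. The Q4 values were 0.00, 0.17, 0.02 and 0.01, with no overlap. The difference was 0.81 (SE 0.19, adjusted p = 0.0150, limma), and it was lost in 6 of 11 alternatives, the fits without preparation 2 or 4 included.

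The other insulin and IGF genes did not pass. Of 6 ligands and binding proteins tested, Igfbp5 was the 1 that rose and 0 fell (median -0.22), where 2.72% of all tested genes were higher and 0.528% lower. Among the rest were Igfbp6 at -1.07 (adjusted p = 0.122) and Igf2 at 0.56 (adjusted p = 0.373). Of 10 partner receptors and adaptors 0 passed (median 0.12). Igf2r, which takes up IGF2 without signalling as a kinase, was in 242 cells and differed by 0.65 (adjusted p = 0.372, limma). The inhibitory adaptor gene Grb10 differed by -0.55 (adjusted p = 0.263, limma). The insulin receptor substrate genes Irs1 and Irs2 were in 2 and 22 cells.

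Across the 16 means, with each preparation's own mean subtracted, the genes whose pattern was most like that of each receptor were compared over 9322 named genes. Nearest to Lifr were Nit1 (Pearson r = 0.92), Lin54 (0.90) and Akr1b10 (0.87). Nearest to Cxcr4 were Dmrt2 (0.91), Pank2 (0.87) and Sys1 (0.87), and nearest to Fgfr1 were Pole3 (0.88), Dlg1 (0.86) and Pus7 (0.84). Il6st was nearest to Yif1a (0.84), Apba3 (0.81) and Slc5a6 (0.79), and Igf1r to Supt3 (0.89), Cyct (0.88) and Ccnf (0.86). Nearest to Insr were F2r (0.90), Nck2 (0.88) and Limd2 (0.83). Between receptors the highest values were 0.55 for Cxcr4 and Insr, 0.50 for Il6st and Insr and 0.49 for Fgfr1 and Il6st. Lifr and Il6st had -0.04. The means of 1 quartile and preparation share their cells and depth, so these values are descriptions with no test. The nearest genes were also picked as the highest of 9322 over 16 means, which by itself gives high values. The fourth nearest gene stood at 0.86 for Lifr and 0.76 for Il6st.

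By the GENCODE M21 annotation of GRCm38, Lifr lies at chr15:7090614-7197489, Igf1r at chr7:67952827-68233668 and Fgfr1 at chr8:25513654-25575718, all on the plus strand. Il6st lies at chr13:112464070-112510086 on the plus strand, and Cxcr4 at chr1:128588199-128592293 and Insr at chr8:3122061-3279617 on the minus strand. The library kit does not mark strand. Reads of Fgfr1 and of Gm16159, of Fgfr3 and of G630022F23Rik, and of Csf1r and of Hmgxb3 cannot be told apart where their exons overlap on opposite strands. In this annotation exons of Fgfr2 also overlap those of Ctbp2 on the same strand. Whether the gene models behind the deposited values hold that overlap is not known, so the few Fgfr2 values may be uncertain too.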

How the data were processed

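The authors deposited 1 table of FPKM values for 23354 gene names and 300 cells. The submitters' processing notes name FastQC, TopHat, Cufflinks and Picard with builds mm10 and GRCm38, without versions. The table names no unit, and FPKM was taken from Cufflinks. Per the labels' protocols, testis cells were digested, enriched on Percoll, sorted, captured on Fluidigm C1 chips and made into cDNA with a SMARTer kit. Raw counts were not used here. Relative depth was recovered from the steps of low values and was the same from most reference cells in 298 of 300 cells. No 2 columns were identical.

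Means of log2(FPKM + 1) per preparation and quartile (15 to 22 cells each, 16 means) were fitted with limma 3.58.1 in R 4.3.3, with quartile and preparation as terms and variances that follow the mean and are robust to outlying genes. The 10411 genes at 1 FPKM or more in at least 30 cells were tested, with Benjamini-Hochberg adjustment over all of them and a threshold of 0.05. Differences on this scale understate changes of low genes. All 4 quartiles shared 1 estimate of spread. Shares of cells were tested by exact two-sided permutation of quartile labels within preparations (331776 relabelings) on the slope, adjusted over the same genes (Python 3.11.15, numpy 2.4.6, pandas 2.3.3, scipy 1.17.1). The fit was tested on simulated data.

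Same-numbered means come from the same mice, which is where the pairing comes from. The deviations of the 24 pairs from their quartile means correlated at 0.0112 to 0.360 (median 0.129).

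The members and the lists were chosen with earlier results of these data known. All 10 receptors are named, up to 4 tested genes per pathway list by smallest p, and the 3 genes nearest to each tested receptor by correlation. Untested list genes given by their cell counts, and Spry1, were chosen after their values were seen. Some genes that the rule would name are not reported here. The 11 pathway lists hold ligands, partners and signalling genes; 3 list genes were matched by an older symbol and 1 was not matched. A cell matched another cell type at 3 or more and at least 50% of that list's measured markers. Alternatives were another pseudocount, filter, average, centring and detection limit, genes per cell as a covariate, no block, each preparation left out, and the matching cells left out.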

Additional observations from a re-analysis of the deposited data

Results flagged for a closer look

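In 9 of 48 receptor groups, 1 preparation lay apart from the other 3 by more than Dixon's limit. About 1 in 20 groups of independent, normally distributed values pass that limit. The groups here hold shares and levels of the same cells, so 9 of 48 cannot be set against that rate. Preparation 1 was the low one in 5 of them. Its share of cells was 0% for Cxcr4 in Q2 (others 33.3% to 40%), 70.6% for Igf1r in Q2 and 53.3% for Igf1r in Q3 (others 95% to 100% in both). Its mean log2(FPKM + 1) was 1.24 for Lifr in Q4 (others 2.02 to 2.19) and 1.56 for Igf1r in Q3 (others 3.59 to 3.90). Preparation 2 had a mean log2 level of 0.11 for Cxcr4 in Q3 (others 0.55 to 0.58) and of 0.035 for Insr in Q2 (others 0.42 to 0.49). Preparation 4 had a share of 52.6% for Il6st in Q3 (others 20% to 25%) and a mean log2 level of 0.21 for Insr in Q1 (others 0.60 to 0.66). Preparation 1 also held the fewest genes per cell, 4368, and the part of that in these values was not tested.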

How the results depend on the processing

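For the 6 tested receptors, 18 results were recomputed under 188 alternatives. In 179 the direction and the side of the threshold stayed, in 8 the sign of Il6st turned, and in 1 a test passed. That 1 is the Lifr share at any value above 0 (5.86 percentage points per quartile, adjusted p = 0.0269). Il6st for Q1 against Q4 was -0.083 with a pseudocount of 0.1, -0.15 with median centring and -0.11 to 0.21 with 1 preparation left out. Its trend was -0.042, -0.058 and -0.032 to 0.051. Lifr for Q1 against Q4 ran from 0.78 to 1.58 (adjusted p 0.0987 to 0.406), and its unadjusted p stayed under 0.05 in 12 of 12. The ranges for Q1 against Q4 were -0.59 to -0.058 for Fgfr1, 0.32 to 1.07 for Cxcr4, 0.12 to 0.42 for Igf1r and 0.13 to 0.67 for Insr. Without the replicate block no receptor call changed: Lifr had 0.98 (adjusted p = 0.406, limma) and its share 6.27 (adjusted p = 0.463, permutation). Over all genes the count of 338 for Q1 against Q4 (470 for the trend) became 99 (177) without the block, 80 (113) with the log of mean FPKM, 135 (197) with genes per cell as covariate and 177 (274) with no filter. With preparation 1, 2, 3 or 4 left out it was 270, 159, 137 and 150 (354, 256, 176 and 213). It was 255 (332) without the cells that matched another cell type and 361 (486) with a pseudocount of 0.1. Median centring moved the median gene from 0.10 to -0.08, and the higher share of calls from 83.7% to 57.8% (83.6% to 54.4% for the trend). The filter at 75 cells gave no value for Cxcr4 and Insr. A transcript under 1 FPKM may be missed in a cell. In simulated data, 27 of 100 differences of 1 on the log2 scale were recovered for Q1 against Q4, and 41 of 100 for the trend.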
